A study of Mus musculus with 170 samples.

Results

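CD8 naive T cells sorted from the spleens of old and young mice were compared across all genes. The comparison used every library of these cells in the deposited count table, 3 old and 4 young, which is 7 of the 170 libraries of 23 sorted cell types. All mice were on a C57/Bl6 background, the young mice were 2 months old and the old mice 22 to 24 months old, and the labels name no treatment other than age. Each library was made from polyadenylated RNA of FACS-purified cells, read near the 3′ ends of transcripts, and pooled the cells of 5 animals. The p-values therefore measure the spread between pools, and variation between single animals was not measured. The sources used here do not give the surface gate that separated naive from memory cells.

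A naive CD8 T cell is a mature lymphocyte that has left the thymus and has not yet met its antigen. It circulates between blood, spleen and lymph nodes by means of homing molecules such as CCR7 and the lipid receptor S1PR1, survives on interleukin-7, and is held quiescent by transcription factors such as LEF1, TCF7, FOXP1, BACH2 and KLF2. After antigen or strong cytokine signals the cell gains CD44, the interleukin-2 and interleukin-15 receptor chain CD122, the T-box factors T-bet and Eomesodermin, chemokines and cytotoxic granule proteins. Virtual memory cells carry part of that programme without a history of foreign antigen.

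The 7 libraries held between 1378514 and 4487329 counts in genes. Replicate libraries differed by more than sampling noise, with a chi-square of at least 6.06 per degree of freedom between any 2 of one group. The first principal component, with 46.3% of the variance, separated the ages, and the second, with 16.2%, set young replicate 4 and old replicate 3 apart from the others. These were the libraries with the fewest counts, 1378514 and 1453672, and the part of depth was not tested. Of the 7 libraries, every one carried the CD8 identity genes: Cd8a, the CD8 alpha chain, stood at 667, 552, 544 and 662 counts per 1000000 (CPM) in young replicates 1 to 4 and at 749, 788 and 724 CPM in old replicates 1 to 3. With edgeR's quasi-likelihood test 0 of the 5 tested CD8 identity genes passed the age test (2 had an unadjusted p below 0.05, and DESeq2 called 0). Cd4 did not exceed 2.05 CPM in any library. All 7 libraries also held adipocyte transcripts, and the summed level of the adipocyte markers was 6089 to 6919 CPM in young and 5954 to 6445 CPM in old libraries, with 0 of 9 tested markers past edgeR's test (0 at an unadjusted p below 0.05 and 0 by DESeq2). Adipoq, the fat cell hormone adiponectin, averaged 252 CPM in young CD8 naive libraries and at most 1.09 CPM in any group of the other 4 spleen T cell subsets. The share of these transcripts was alike in both ages, so no library could be set aside for it.

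More genes gained than lost transcripts in old CD8 naive cells, and the gains were larger. Of 11545 genes tested, 942 (8.16%) changed at an adjusted p below 0.05, by edgeR's quasi-likelihood test and Benjamini-Hochberg's adjustment, and of these 594 (5.15% of the tested genes) were higher and 348 (3.01%) lower in old cells. Among the higher genes the median log2 fold change was 1.54, 222 genes exceeded 2 and 81 exceeded 4. Among the lower genes the median fall was 0.96, 24 genes fell by more than 2 and 0 fell by more than 4. All 11545 genes together had a median log2 fold change of −0.001. Old and young libraries did not overlap for 583 of the 594 higher and 330 of the 348 lower genes, against 10.6% and 8.06% of all tested genes with no overlap in those directions. The genes were called with these same libraries, so the lack of overlap is a description and not a further test. The count of lower genes depended on 1 library and on the estimate of spread: it was 187 without old replicate 1 and 156 when the spread was shared with 4 other T cell subsets, where the counts of higher genes were 418 and 451.

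**Figure D1:**
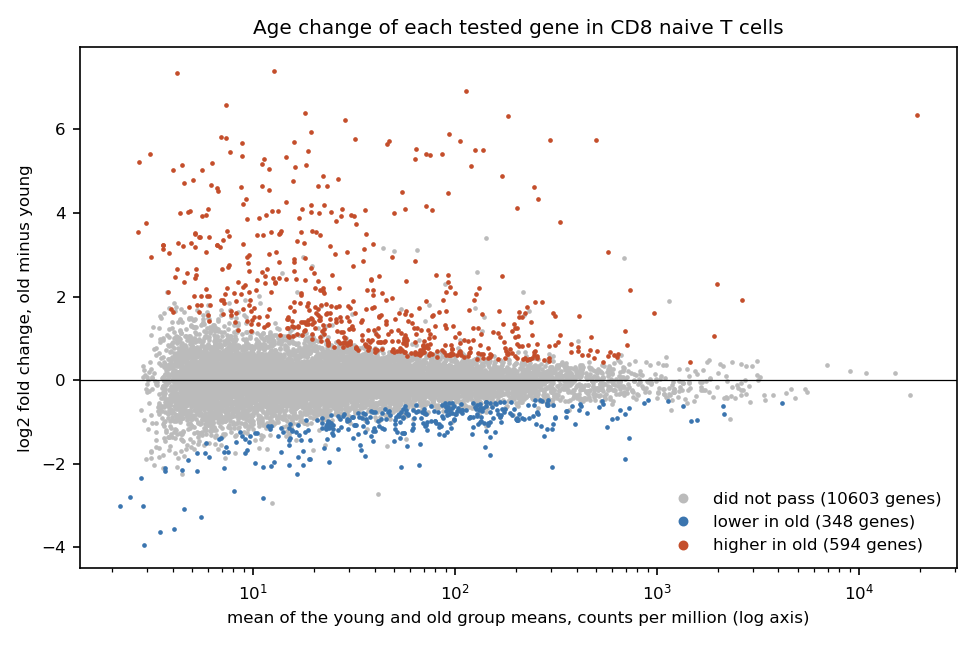
Each point is 1 of the 11545 tested genes, with the mean of its young and old CPM on a log axis against its log2 fold change (old minus young) and the colour giving the test's call. The 594 higher genes reach log2 fold changes above 7, whereas the 348 lower genes stay above −4.

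Chemokine ligand genes rose in part, and to high levels. The 11 listed ligand genes summed to 520 to 611 CPM in young and to 33426 to 46603 CPM in old libraries, and 4 of the 9 tested members rose (Ccl5, Ccl4, Ccl3 and Xcl1) and 0 fell, beside 5.15% and 3.01% of all tested genes. Ccl5, Ccl4 and Ccl3 encode inflammatory chemokines, and Xcl1 encodes lymphotactin, which attracts cross-presenting dendritic cells. Promoters are shown for the 2 of these 4 genes that the RefSeq promoter table holds, as 250 bases ending just before the transcription start on GRCm38.p6, both on the minus strand, with the RUNX motif TGTGGT (either strand) in capitals.
Ccl3 (chr11:83649379-83649628): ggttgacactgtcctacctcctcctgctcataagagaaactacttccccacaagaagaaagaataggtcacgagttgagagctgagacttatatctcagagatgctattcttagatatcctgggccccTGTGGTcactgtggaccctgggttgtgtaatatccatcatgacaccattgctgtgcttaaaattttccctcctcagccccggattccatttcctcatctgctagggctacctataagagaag
Xcl1 (chr1:164935523-164935772): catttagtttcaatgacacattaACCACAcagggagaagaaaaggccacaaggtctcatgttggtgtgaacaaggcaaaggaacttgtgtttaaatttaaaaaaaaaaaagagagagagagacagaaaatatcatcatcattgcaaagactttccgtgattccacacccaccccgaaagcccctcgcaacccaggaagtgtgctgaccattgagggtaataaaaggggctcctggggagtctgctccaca

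The Ccl3 and Xcl1 windows each held 1 RUNX match and no match to the T-box motif AGGTGTGA, the TCF and LEF motif ATCAAAG or the AP-1 motif TGANTCA, searched on both strands; these 4 motifs do not overlap one another in these windows. The motifs were chosen with the changed genes known. Of the 27025 promoter windows in the table, 14.2% held the RUNX letters, 1.14% the T-box letters, 3.23% the TCF and LEF letters and 6.87% the AP-1 letters. Of the 8032 windows of tested genes, 10.9% held the RUNX, 0.697% the T-box, 2.32% the TCF and LEF and 3.87% the AP-1 letters. The shares were 15.5%, 1.36%, 1.14% and 6.36% of the 440 windows of higher genes and 11.8%, 0.784%, 1.96% and 1.96% of the 255 windows of lower genes, in the same order. A match describes letters in a window and is not evidence of binding.

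Ccl4 stood at 13.4, 22.7, 21.2 and 16.0 CPM in the young and at 1035, 865 and 1041 CPM in the old libraries. The old libraries lay far above the young ones with no overlap, a log2 fold change of 5.75 ± 0.19 (SE; edgeR adjusted p = 7.69e-13). Ccl3 stood at 4.56, 5.80, 10.8 and 6.95 CPM in the young and at 279.9, 243 and 180.1 CPM in the old libraries. Its groups were as widely apart, with a log2 fold change of 5.11 ± 0.25 (edgeR adjusted p = 1.12e-10). Xcl1 moved from 8.21, 11.6, 30.2 and 12.5 CPM to 46.7, 65.5 and 77.4 CPM, where young replicate 3 was the highest of the young libraries and still below every old one (log2 fold change 2.03 ± 0.36, edgeR adjusted p = 0.00228). Ccl5 had the most counts of these ligands, with 455 to 508 CPM in young and 32081 to 45179 CPM in old libraries.

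The risen ligand genes have neighbours that did not pass the test, in a locus looked at after the values were seen. On chromosome 11 (GRCm38) the chemokine cluster holds Ccl5 at 83525778-83530518, Ccl9 at 83572919-83578636, Ccl6 at 83587882-83593087, Ccl3 at 83647844-83649355 and Ccl4 at 83662584-83664683. Between the risen genes, Ccl9 had 3.47 to 9.36 CPM in young and 2.81 to 6.70 CPM in old libraries (log2 fold change −0.22 ± 0.45, edgeR adjusted p = 0.861), and Ccl6 had 19.4 to 29.2 and 18.3 to 41.7 CPM (0.54 ± 0.28, edgeR adjusted p = 0.294), both with overlap. Heatr9, a gene of HEAT repeats next to Ccl5 at 83511736-83522175, had 1 count in all young libraries and 90 counts in the old ones. The ratio of summed CPM was 141, with a 95% exact interval of 24.7 to 5627 that covers counting error only.

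Chemokine and S1P receptor genes changed in both directions. Of 12 tested members 7 rose and 3 fell, beside 5.15% and 3.01% of all tested genes, with a list median of 1.13 log2. Ccr2, which follows CCL2 to inflamed tissue, stood at 4.56, 2.68, 0 and 2.08 CPM in young and at 121, 149 and 108 CPM in old libraries. Its groups were far apart (log2 fold change 5.53 ± 0.38, edgeR adjusted p = 2.09e-07). Cxcr3, the receptor of the interferon-induced CXCL9 and CXCL10, rose from 4.90 to 12.2 CPM in young to 115 to 163 CPM in old libraries (log2 fold change 4.07 ± 0.25, edgeR adjusted p = 2.72e-09). Cxcr5, the B cell follicle homing receptor, rose from 4.46 to 6.95 CPM to 33.8 to 52.0 CPM (log2 fold change 3.01 ± 0.28, edgeR adjusted p = 6.4e-07).

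The 3 receptor genes that fell were Ccr9, Ccr7 and S1pr1. Ccr9, the gut homing receptor that recent thymic emigrants carry, stood at 244, 244, 218 and 224 CPM in young and at 65.4, 79.7 and 54.2 CPM in old libraries. All old libraries were below all young ones (log2 fold change −1.80 ± 0.16, edgeR adjusted p = 5.43e-07). Ccr7 stood at 453, 360.3, 448 and 393 CPM in young and at 168, 249.8 and 182 CPM in old libraries (log2 fold change −1.05 ± 0.16, edgeR adjusted p = 0.000238). S1pr1, which draws lymphocytes out of lymphoid organs, stood at 351, 351, 415 and 456 CPM against 135, 189 and 200.5 CPM (−1.17 ± 0.17, edgeR adjusted p = 9.34e-05). Neither gene's groups overlapped. With the spread shared over 5 subsets the adjusted p was 0.108 for Ccr7 and 0.0673 for Ccr9. On chromosome 9 the fallen Ccr9 (123678439-123784330) and the risen Ccr2 (124101950-124113557) belong to the same receptor gene cluster. Beside them Cxcr6, which had 169 to 261 CPM in young and 315 to 572 CPM in old libraries, rose by a log2 fold change of 0.92 ± 0.19 (edgeR adjusted p = 0.00441), a call lost without old replicate 1 (0.0585) or with the shared spread (0.15).

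Most cytotoxic effector genes rose. Of 18 tested members 12 rose and 0 fell, beside 5.15% and 3.01% of all tested genes, and the list median was 1.38 log2. Gzmb, the serine protease that triggers target cell apoptosis, stood at 3.87, 1.34, 3.61 and 5.56 CPM in young and at 179.5, 137 and 125 CPM in old libraries. Every old library lay far above every young one (log2 fold change 5.38 ± 0.27, edgeR adjusted p = 1.85e-10). Fasl, the ligand of the death receptor Fas, stood at 2.96, 3.57, 2.26 and 3.47 CPM against 218, 134 and 199 CPM (log2 fold change 5.90 ± 0.25, edgeR adjusted p = 1.79e-11). Ifng, the antiviral cytokine interferon gamma, stood at 1.14, 1.34, 2.26 and 2.78 CPM against 94.2, 47.3 and 136 CPM (5.72 ± 0.41, edgeR adjusted p = 1.02e-07). Of these 3 genes the old libraries differed among themselves most for Ifng, where old replicate 3 was the highest, yet none came near the young range. Nkg7, a protein of lytic granules, was already at 1039.8 to 1281 CPM in young libraries and rose to 3689 to 4778 CPM (1.92 ± 0.14, edgeR adjusted p = 4.28e-08). Ctsw, a protease of cytotoxic cells, overlapped between the ages with 133 to 226 and 223 to 264 CPM (0.42 ± 0.16, edgeR adjusted p = 0.134).

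The granzymes of chromosome 13 rose together. Gzmk (113171608-113225908, minus strand) stood at 6.61, 16.1, 11.7 and 9.72 CPM in young and at 720.2, 552 and 462 CPM in old libraries (log2 fold change 5.75 ± 0.25, edgeR adjusted p = 1.4e-10). Gzma (113093825-113100981, minus strand) stood at 7.98, 3.12, 6.77 and 13.2 CPM against 161, 89.7 and 155 CPM (4.17 ± 0.32, edgeR adjusted p = 2.85e-07). Neither gene's groups overlapped. Esm1, the endothelial proteoglycan endocan, lies inside the span of Gzmk on the opposite strand (113209659-113218098) and rose from 0 to 2.05 CPM to 34.2 to 56.1 CPM (4.88 ± 0.43, edgeR adjusted p = 3.21e-07). Whether the counting used strand is not stated, so reads of Gzmk and Esm1 cannot be told apart here.

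Many genes of antigen-experienced and virtual memory cells also rose, to unequal levels. Of 23 tested members 14 rose and 0 fell, beside 5.15% and 3.01% of all tested genes, with a list median of 1.63 log2. Eomes, the T-box factor of memory and virtual memory cells, stood at 28.7, 41.0, 62.2 and 50.7 CPM in young and at 657, 516 and 677 CPM in old libraries. The old libraries were close to one another and far above the young ones (log2 fold change 3.78 ± 0.22, edgeR adjusted p = 6.67e-09). Tbx21, which encodes T-bet, stood at 1.37, 3.57, 5.41 and 3.47 CPM against 19.5, 32.0 and 45.0 CPM (3.28 ± 0.42, edgeR adjusted p = 2.71e-05). Cd44, the adhesion receptor used to tell memory from naive T cells, stood at 10.5, 7.13, 14.4 and 7.64 CPM against 32.5, 25.7 and 50.6 CPM, with no overlap (1.82 ± 0.31, edgeR adjusted p = 0.000669; 0.0765 with the spread shared over 5 subsets). Il2rb, which encodes CD122, rose from 90.0 to 110.0 CPM to 300.0 to 325 CPM (1.63 ± 0.14, edgeR adjusted p = 2.4e-07). Ly6c2, a surface antigen abundant on memory CD8 cells, overlapped, with 201 to 494 CPM in young and 175 to 287 CPM in old libraries (−0.42 ± 0.28, edgeR adjusted p = 0.464).

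Transcription factors of activated T cells differed in how evenly they rose over the old libraries. Maf, a factor of follicular and regulatory T cell programmes, stood at 10.7, 9.81, 14.4 and 9.72 CPM in young and at 352, 318 and 324 CPM in old libraries (log2 fold change 4.88 ± 0.18, edgeR adjusted p = 2.34e-12). Batf, an AP-1 family factor of effector cells, rose from 43.1 to 63.1 CPM to 149 to 197 CPM (1.67 ± 0.17, edgeR adjusted p = 2.67e-06). Both genes were nearly level among the old libraries. Bhlhe40, a basic helix-loop-helix factor of cytokine-producing cells, was not, with 2.78 to 7.98 CPM in young and 260.0, 91.6 and 455 CPM in old libraries (5.52 ± 0.67, edgeR adjusted p = 0.00444). The immediate-early genes, which respond within minutes to stimulation and to tissue handling, followed the same order in the old libraries. Junb stood at 1352, 428 and 3639 CPM and Fos at 281, 67.7 and 708 CPM in old replicates 1 to 3, overlapping the young ranges of 247 to 794 CPM and 51.0 to 189 CPM. Neither passed the test (edgeR adjusted p = 0.301 and 0.399). Of the 12 tested AP-1 and BATF genes, Maf and Batf were the 2 that rose and 0 fell, beside 5.15% and 3.01% of all tested genes. Leaving out each library in turn, the log2 fold change of Bhlhe40 ran from 4.92 to 5.93, with an edgeR adjusted p of at most 0.0283. It was 4.92 without old replicate 3, the library highest in immediate-early genes (edgeR adjusted p = 2.05e-05). The part of handling in these values was not tested.

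Inhibitory receptor and exhaustion genes rose broadly. Of 15 tested members 13 rose and 0 fell, beside 5.15% and 3.01% of all tested genes, and the list median was 2.36 log2. Pdcd1, which encodes the checkpoint receptor PD-1, stood at 2.74, 3.12, 2.71 and 5.56 CPM in young and at 155, 166 and 97.1 CPM in old libraries (log2 fold change 5.40 ± 0.28, edgeR adjusted p = 1.85e-10). Tox, a nuclear factor tied to chronic stimulation, stood at 96.0, 125, 119.5 and 82.0 CPM against 407, 383 and 381 CPM (1.88 ± 0.16, edgeR adjusted p = 1.74e-07). The old libraries were nearly level for Tox and lay above the young ones for both genes. Entpd1, the ATP-cleaving surface enzyme CD39, rose from 1.39 to 4.33 CPM to 38 to 59.8 CPM (4.10 ± 0.33, edgeR adjusted p = 1.11e-07), and Ikzf2, which encodes Helios, from 24.2 to 38.3 CPM to 135 to 181 CPM (2.35 ± 0.20, edgeR adjusted p = 1.74e-07). Havcr2, the checkpoint receptor TIM-3, and Tox2 rose from at most 2.26 and 1.37 CPM to 23.2 to 41.4 and 20.5 to 40.1 CPM, with log2 fold changes of 5.09 ± 0.48 and 5.33 ± 0.54. The tested members that did not pass were Btla, with 22.6 to 46.5 CPM in young and 14.8 to 27.2 CPM in old libraries, and Nr4a3, with 3.42 to 6.95 and 2.23 to 19.7 CPM.

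Transcripts typical of innate-like lymphocytes rose in part, and the shares over all tested genes were 5.15% higher and 3.01% lower. Of 4 tested gamma delta T cell markers 3 rose and 0 fell. Trgc2 and Trgc4, which encode gamma chain constant regions of the T cell receptor, stood at 5.24, 8.03, 2.26 and 0.695 CPM and at 1.60, 1.34, 2.71 and 1.39 CPM in young libraries. In old libraries they stood at 371, 419 and 290.5 CPM and at 94.2, 117 and 60.5 CPM. No old library came near the young range (log2 fold changes 6.32 ± 0.33 and 5.66 ± 0.32, edgeR adjusted p = 2.73e-08 and 9.51e-10). The constant genes of this locus resemble one another, and how the counting divided shared reads is not stated, so the split between them is uncertain. Trdc, the delta chain constant gene that gamma delta T cells need, was at 7.64 to 17.8 CPM in young and 3.25 to 14.9 CPM in old libraries (−0.60 ± 0.44, edgeR adjusted p = 0.501). Of 7 tested NK receptor genes 4 rose and 1 fell: Klrk1, the activating receptor NKG2D, rose from 1.39 to 4.96 CPM to 15.0 to 41.5 CPM (2.83 ± 0.40, edgeR adjusted p = 0.000102), and Klrd1, the CD94 subunit, fell from 141 to 239 CPM to 71.1 to 98.3 CPM (−1.0 ± 0.19, edgeR adjusted p = 0.00229). Klre1, an NK cell receptor subunit, stood at 1.37, 0.446, 0.902 and 0.695 CPM in young and at 22.7, 25.3 and 21.1 CPM in old libraries (4.54 ± 0.42, edgeR adjusted p = 5.53e-07). The NK cell marker list summed to 42.2 to 69.5 CPM in young and 610.4 to 842 CPM in old libraries. Nearly all of the old sums came from Eomes and Gzma, which the lists above also hold. These were the only 2 of its 7 members tested, and both rose. Its defining marker Ncr1 did not exceed 1.34 CPM in any library. In bulk libraries, more cells of a type and more RNA per cell cannot be told apart.

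Several of the 15 named genes with the highest log2 fold changes belong to none of the lists. Penk, which encodes the opioid peptide precursor proenkephalin, stood at 1.82, 3.12, 1.80 and 0 CPM in young and at 219, 319 and 141 CPM in old libraries (log2 fold change 6.91 ± 0.39, edgeR adjusted p = 5.26e-08). Lmo1, a LIM domain cofactor known from T cell leukaemia, moved from at most 0.695 CPM to 37.8, 47.6 and 22.5 CPM (6.39 ± 0.53, edgeR adjusted p = 1.57e-07). Kcnip3, the calcium-binding repressor DREAM, had 1 count in the young libraries and 169 in the old ones, a ratio of summed CPM of 265 with an exact 95% interval of 46.9 to 10512. Chst2, a sulfotransferase of carbohydrate ligands, and Dapk2, a death-associated kinase, rose from at most 0.912 and 1.14 CPM to 32.1 to 49.9 and 26.0 to 39.8 CPM. The serine protease inhibitor genes Serpina3g and Serpina3f, neighbours on chromosome 12, rose with log2 fold changes of 5.72 ± 0.21 and 5.04 ± 0.48, from at most 4.96 and 0.912 CPM to 194 to 218 and 16.2 to 28.7 CPM. They are close paralogs, so the split of reads between them is uncertain.

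Most genes of the naive state fell, with smaller log2 fold changes than those of the effector genes. Of 23 tested naive and quiescence genes 16 fell and 1 rose, beside 3.01% and 5.15% of all tested genes, with a list median of −0.94 log2. Lef1 stood at 1077, 878, 1107 and 1113 CPM in young and at 369, 416 and 424 CPM in old libraries, with no overlap (log2 fold change −1.37 ± 0.14, edgeR adjusted p = 2.54e-06). Il7r, the receptor of the survival cytokine interleukin-7, stood at 715, 787, 824 and 763 CPM against 249.8, 447 and 378 CPM (−1.11 ± 0.17, edgeR adjusted p = 0.000247). Dapl1, a death-associated protein-like gene, stood at 1163, 1119, 1322 and 791 CPM against 224, 399 and 268 CPM (−1.89 ± 0.21, edgeR adjusted p = 1.52e-05). Ets1, a factor expressed through T cell life, overlapped at 1236 to 1569 and 1245 to 1629.7 CPM (−0.05 ± 0.14, edgeR adjusted p = 0.893). The member that rose was Itm2a, a transmembrane gene of activated thymocytes, with 23.2 to 32.0 CPM in young and 38.6 to 54.2 CPM in old libraries (0.78 ± 0.21, edgeR adjusted p = 0.0288). Its call was lost without young replicate 1, young replicate 2, old replicate 2 or old replicate 3 (adjusted p from 0.0547 to 0.103), with no filter on low counts (0.0613) and with the shared spread (0.515).

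**Figure D2:**
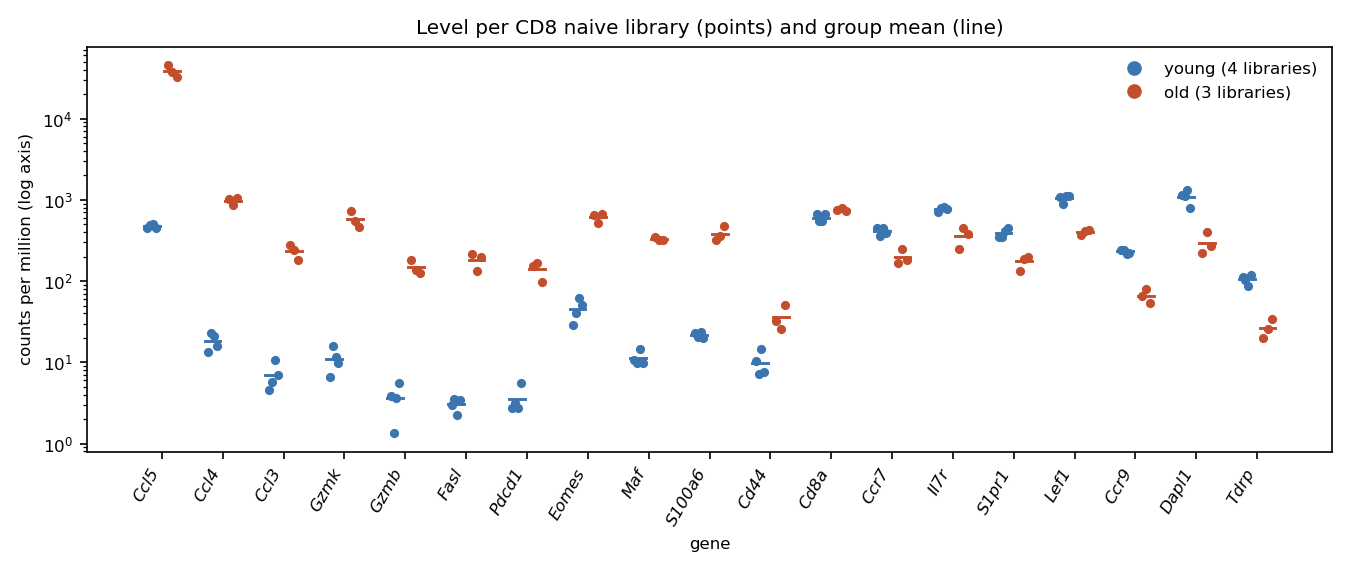
Points are the CPM of single libraries on a log axis and lines are the group means, for 19 genes in the 4 young and 3 old CD8 naive libraries. The young and old libraries did not overlap for any of these genes, and each gene but Cd8a passed the test. Examples are Ccl5 with 455 to 508 against 32081 to 45179 CPM and Ccr7 with 360.3 to 453 against 168 to 249.8 CPM.

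The 15 named genes with the lowest log2 fold changes lay between −1.66 (Rapgef4) and −2.25 (St8sia1) and included transporters and a channel. Slc6a19, a neutral amino acid transporter, stood at 92.1, 93.2, 90.2 and 77.8 CPM in young and at 26.4, 24.9 and 8.44 CPM in old libraries (log2 fold change −2.09 ± 0.26, edgeR adjusted p = 2.93e-05). Slc16a5, a monocarboxylate transporter gene, fell from 21.2 to 31.3 CPM to 5.63 to 8.53 CPM (−1.82 ± 0.30, edgeR adjusted p = 0.000513; 0.0612 with the spread shared over 5 subsets). Tdrp, a nuclear protein gene known from the testis, stood at 114, 104, 87.9 and 119 CPM against 19.9, 25.7 and 33.8 CPM (−2.03 ± 0.21, edgeR adjusted p = 2.54e-06). Tanc1, a scaffold protein gene, fell from 41.3 to 67.3 CPM to 13.8 to 19.0 CPM (−1.80 ± 0.24, edgeR adjusted p = 6.04e-05), and Rapgef4, the cAMP-regulated exchange factor EPAC2, from 43.3 to 75.8 CPM to 11.3 to 20.3 CPM (−1.66 ± 0.27, edgeR adjusted p = 0.000412). None of these 5 genes had overlapping groups. The voltage-gated potassium channel gene Kcna2, with 16.2 to 44.1 CPM in young and 2.11 to 13.8 CPM in old libraries, was weaker (−2.04 ± 0.56, edgeR adjusted p = 0.0442) and lost its call without any 1 of young replicates 2, 3 and 4 and old replicates 1 and 3 (0.0545 to 0.176) or with the shared spread (0.144). Its log2 fold change was −3.32 without old replicate 2.

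T cell receptor signalling genes changed by smaller amounts, with 8 of 24 members higher and 1 lower, beside 5.15% and 3.01% of all tested genes, and a median of 0.28 log2. Cd28, the main costimulatory receptor, stood at 155, 183, 163 and 140.3 CPM in young and at 409, 395 and 600.0 CPM in old libraries (log2 fold change 1.54 ± 0.16, edgeR adjusted p = 3.21e-06). Fyn, a Src family kinase, stood at 103, 124, 126 and 172 CPM against 331, 322 and 376 CPM (1.39 ± 0.16, edgeR adjusted p = 1.15e-05). Both genes' groups were apart, and so were those of Ptpn22, a phosphatase that damps receptor signals, at 265 to 344 and 501 to 539 CPM (0.81 ± 0.14, edgeR adjusted p = 0.000552).

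Cytokine receptor genes moved in both directions, with 5 of 20 tested members higher and 4 lower, beside 5.15% and 3.01% of all tested genes. Il10ra, the ligand-binding chain of the interleukin-10 receptor, stood at 5.47, 4.01, 4.06 and 13.2 CPM in young and at 127, 86.0 and 105 CPM in old libraries (log2 fold change 4.10 ± 0.30, edgeR adjusted p = 5.82e-08). Il12rb1, shared by the interleukin-12 and interleukin-23 receptors, rose from 0.446 to 5.41 CPM to 21.6 to 45.1 CPM (3.55 ± 0.48, edgeR adjusted p = 8.4e-05). Young replicate 4 was the highest young library for Il10ra and lay below every old one. Besides Il7r, the fallen members included Il6st, the gp130 chain of interleukin-6 signalling, which went from 136 to 184 CPM to 67.4 to 101 CPM (−0.87 ± 0.18, edgeR adjusted p = 0.00324). Ifngr2, a chain of the interferon gamma receptor, fell from 32.1 to 49.3 CPM to 19.0 to 23.1 CPM (−1.08 ± 0.23, edgeR adjusted p = 0.00517; 0.239 with the spread shared over 5 subsets).

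Of 18 tested integrin and adhesion genes 5 rose and 5 fell, beside 5.15% and 3.01% of all tested genes. Itgal and Itgb2, the chains of LFA-1, which binds ICAM-1, rose together: Itgal stood at 96.2, 126, 123 and 127 CPM in young and at 286, 234 and 316 CPM in old libraries (log2 fold change 1.24 ± 0.16, edgeR adjusted p = 2.37e-05). Itgb2 moved from 122 to 152 CPM to 258 to 314 CPM (1.05 ± 0.14, edgeR adjusted p = 7.03e-05). Itga6, a laminin-binding chain, fell from 49.7 to 113 CPM to 26.4 to 35.9 CPM (−1.25 ± 0.27, edgeR adjusted p = 0.00525), and the costimulatory adhesion gene Cd226 from 139 to 188 CPM to 68.9 to 82.5 CPM (−1.12 ± 0.16, edgeR adjusted p = 0.000127). None of these 4 genes had overlapping groups.

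Genes of antigen presentation, interferon response, protein folding, cell division and cell death changed in part; the shares over all tested genes were 5.15% higher and 3.01% lower. Of 20 MHC class I presentation genes 7 rose and 0 fell, among them H2-Q6, a class Ib gene with near-identical neighbours, from 62.5 to 82.5 CPM to 132 to 145 CPM (log2 fold change 0.90 ± 0.16, edgeR adjusted p = 0.00087), a value that shared reads make uncertain. Of 39 tested interferon-stimulated genes 8 rose and 4 fell. Ly6a, which encodes Sca-1, stood at 30.3, 27.2, 37.9 and 12.5 CPM against 153, 209 and 113 CPM (2.52 ± 0.28, edgeR adjusted p = 2.82e-05), whereas Slfn5, of the Schlafen family, stood at 189.9, 245, 197 and 226 CPM against 95.5, 80.0 and 73.9 CPM (−1.36 ± 0.16, edgeR adjusted p = 1.33e-05). The groups of both genes were apart, in opposite directions. Usp18, which removes the ubiquitin-like ISG15, also fell, from 28.9 to 35.7 CPM to 11.3 to 15.4 CPM (−1.18 ± 0.25, edgeR adjusted p = 0.00449).

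Of 30 tested proliferation genes 5 rose and 1 fell, beside 5.15% and 3.01% of all tested genes, and the share that fell was near that over all genes. Mki67, the Ki-67 protein of dividing cells, stood at 8.89, 5.35, 4.96 and 15.3 CPM in young and at 23.6, 35.7 and 26.0 CPM in old libraries (log2 fold change 1.77 ± 0.35, edgeR adjusted p = 0.0025; 0.126 with the spread shared over 5 subsets). The levels were low in both ages and did not overlap. Hmgb2, a chromatin protein abundant in cycling cells, rose from 115 to 132 CPM to 259 to 321 CPM (1.24 ± 0.14, edgeR adjusted p = 7.9e-06). Of 8 tested cell cycle inhibitor genes 2 rose and 0 fell, and Cdkn2c, which encodes p18, went from 7.64 to 14.9 CPM to 26.7 to 50.8 CPM (1.60 ± 0.29, edgeR adjusted p = 0.00124). Of 21 tested unfolded protein response genes 7 rose and 0 fell, such as Pdia3, a disulfide isomerase of the endoplasmic reticulum, from 173 to 210.0 CPM to 283 to 330.2 CPM (0.69 ± 0.14, edgeR adjusted p = 0.00276). Xbp1, the transcription factor of that response, rose from 30.8 to 40.3 CPM to 72.6 to 78.1 CPM (1.01 ± 0.18, edgeR adjusted p = 0.00116; 0.504 with the spread shared over 5 subsets). Xbp1 is also a plasma cell marker, and so is Jchain, the antibody joining chain, which rose from 10.4 to 32.0 CPM to 42.9 to 76.3 CPM (edgeR adjusted p = 0.00331; 0.658 with the shared spread). The plasma cell list summed to 405 to 611 CPM in young and 454 to 864 CPM in old libraries. Its part in the Xbp1 value was not tested.

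Of 24 tested apoptosis regulator genes 8 rose and 0 fell, beside 5.15% and 3.01% of all tested genes. Casp1, the inflammatory caspase that matures interleukin-1 beta, stood at 7.98, 5.80, 9.47 and 8.34 CPM in young and at 193, 178 and 161 CPM in old libraries (log2 fold change 4.49 ± 0.20, edgeR adjusted p = 3.03e-11). Casp4, its neighbour on chromosome 9 and the sensor of intracellular lipopolysaccharide, stood at 1.60, 6.69, 0.902 and 0.695 CPM against 54.4, 34.2 and 31.7 CPM (4.0 ± 0.48, edgeR adjusted p = 3.01e-05). Both caspase genes had separate groups. Bcl2, the survival factor sustained by interleukin-7, overlapped at 303 to 362 and 343 to 423 CPM (0.17 ± 0.14, edgeR adjusted p = 0.563). The caspases of inflammation are abundant in monocytes and macrophages too, and that marker list summed to 119.5 to 172 CPM in young and 181 to 414 CPM in old libraries. Lyz2, its lysozyme gene, stood at 49.2 to 76.4 CPM in young and at 236, 289 and 85.1 CPM in old libraries. The part of these cells in the caspase values was not tested.

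Of 10 tested DNA methylation genes 3 fell and 0 rose, beside 3.01% and 5.15% of all tested genes. Tet3, a dioxygenase that oxidises methylcytosine, stood at 149.8, 201, 234 and 208 CPM in young and at 102, 86.0 and 94.2 CPM in old libraries, with no overlap (log2 fold change −1.07 ± 0.17, edgeR adjusted p = 0.000336). The other members that fell were Tet1 (−0.91 ± 0.24, edgeR adjusted p = 0.0212), a call lost without young replicate 3 or old replicate 1 (0.0718 and 0.122), and the de novo methyltransferase Dnmt3a (−0.75 ± 0.18, edgeR adjusted p = 0.0139), lost without old replicate 3 (0.063) or with the spread shared over 5 subsets (0.0809). Dnmt1, the maintenance methyltransferase, overlapped at 73.1 to 113 and 68.2 to 87.1 CPM. With edgeR 0 of 33 nuclear oxidative phosphorylation genes passed in either direction; 3 were higher at an unadjusted p below 0.05, DESeq2 called 0, and the list median was 0.12 log2.

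**Figure D3:**
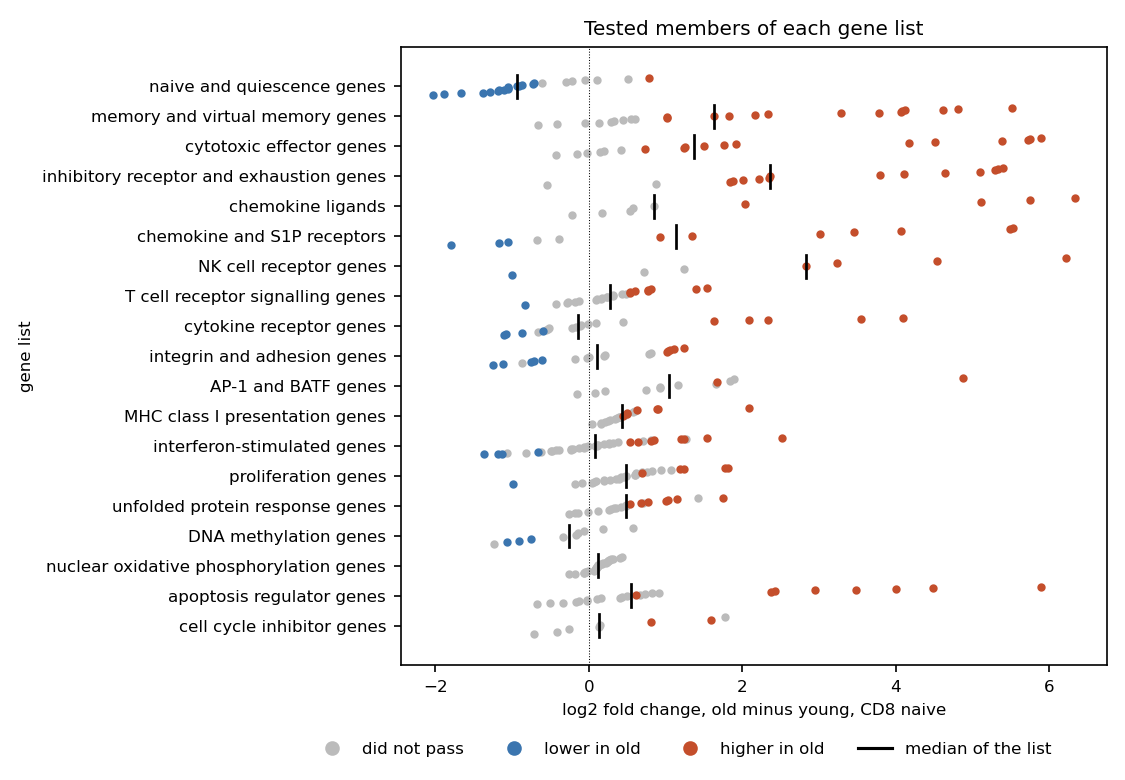
Each point is a tested member of 1 of 19 gene lists, placed by its log2 fold change (old minus young) and coloured by the test's call, with a vertical line at the list's median. Inhibitory receptor, memory and cytotoxic genes lie to the right with medians of 2.36, 1.63 and 1.38, naive and quiescence genes lie to the left with a median of −0.94, and oxidative phosphorylation genes lie near 0.

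Markers of other blood cells moved with age in some libraries, and the shares over all tested genes were 5.15% higher and 3.01% lower. The erythroid list summed to 499 to 1278 CPM in young and 1923 to 3304 CPM in old libraries, led by the beta globin gene Hbb-bs at 324 to 759 and 1127 to 2028 CPM, and 3 of its 6 tested members rose and 0 fell. The Hbb-bs call (edgeR adjusted p = 0.0169) was lost without young replicate 3 or 4 (0.0744 and 0.0518) or with the spread shared over 5 subsets (0.312). The neutrophil list summed to 26.6 to 123 CPM in young and 73.1 to 1358 CPM in old libraries, and 1 of its 5 tested members passed. Its member S100a8 stood at 14.4 to 44.0 CPM in young libraries and at 209.6, 541 and 31.7 CPM in old replicates 1 to 3 (edgeR adjusted p = 0.126; 0.0191 without old replicate 3 and 0.00502 with DESeq2). The B cell list summed to 84.8 to 122 and 49.2 to 102 CPM, with 0 of 3 tested members past edgeR's test (1 at an unadjusted p below 0.05, 0 by DESeq2). Of the dendritic cell genes 1 of 2 tested rose, and of the thymocyte and stromal genes 1 of 4 and 1 of 5 tested fell. The gamma delta T cell list summed to 13.9 to 32.6 and 373 to 571 CPM through its gamma constant genes. The highest S100a8 level was in old replicate 2. Risen genes differed in this: Ccl5, Gzmb and Gzmk were highest in old replicate 1. Penk, Pdcd1 and Ccr2 were highest in old replicate 2, and Ifng and Bhlhe40 in old replicate 3. The part of these cells in the age change was not tested beyond these values.

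Some risen genes had higher means in old CD8 naive than in old virtual memory and memory libraries, and others had lower means. Set on a common scale over 5 spleen T cell subsets, Ccl5 averaged 36456 ± 6186 CPM (SD, n = 3) in old CD8 naive, 16403 ± 2618 CPM (n = 5) in old CD8 virtual memory and 19373 ± 9193 CPM (n = 3) in old CD8 memory libraries. Gzmk averaged 548 ± 124, 36.1 ± 32.7 and 392 ± 209 CPM, and Eomes 586 ± 88.2, 241 ± 29.0 and 394 ± 123 CPM in the same order. For Ccl5, Gzmk and Eomes all old CD8 naive libraries lay above all old virtual memory libraries, whereas the Ccl5 range of 30668 to 42976 CPM lay above the memory range of 10687 to 29000.3 CPM and the Gzmk ranges of 442 to 685 and 215 to 622 CPM overlapped. Cd44 went the other way, with 34.5 ± 12.5, 224 ± 17.5 and 233 ± 58.5 CPM, and so did Tbx21, with 30.6 ± 12.2, 134 ± 34.3 and 63.3 ± 24.5 CPM, and Il2rb, with 297 ± 14.3, 749 ± 108 and 383 ± 119 CPM. For Cd44 no old CD8 naive library reached the lowest library of either memory subset. These levels are set side by side without a test.

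Dapl1, Ccr9 and Slc6a19, which fell with age, were still higher in old CD8 naive than in old memory libraries. Dapl1 averaged 281 ± 83.8 CPM in old CD8 naive, 80.1 ± 28.9 CPM in old virtual memory and 34.1 ± 2.60 CPM in old memory libraries, from 1059 ± 226 CPM (n = 4) in young CD8 naive libraries. Ccr9 averaged 63.0 ± 11.6, 5.53 ± 6.34 and 13.2 ± 11.8 CPM, and Slc6a19 18.9 ± 9.40, 1.20 ± 1.17 and 0.720 ± 0.889 CPM. For each of these 3 genes the old CD8 naive libraries lay above all old virtual memory and memory libraries. Lef1 was closer, at 383 ± 28.1, 318 ± 98.5 and 148 ± 32.7 CPM, and the old CD8 naive and virtual memory libraries overlapped. Over the 594 higher genes, the old CD8 naive mean was above the old virtual memory mean for 433 genes and above the old memory mean for 328, against 5985 and 6431 of all 11545 tested genes. Over the 348 lower genes it was above for 92 and 168. Old CD8 naive libraries lay wholly above the old virtual memory ones for 182 of the higher and 30 of the lower genes, and wholly below for 49 and 109, against 1059 above and 839 below over all tested genes. Against old memory libraries, 114 of the higher and 74 of the lower genes lay wholly above and 101 and 82 wholly below, against 1920 and 1382. The higher and lower genes were called with the same old CD8 naive libraries, so these counts are a description.

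**Figure D4:**
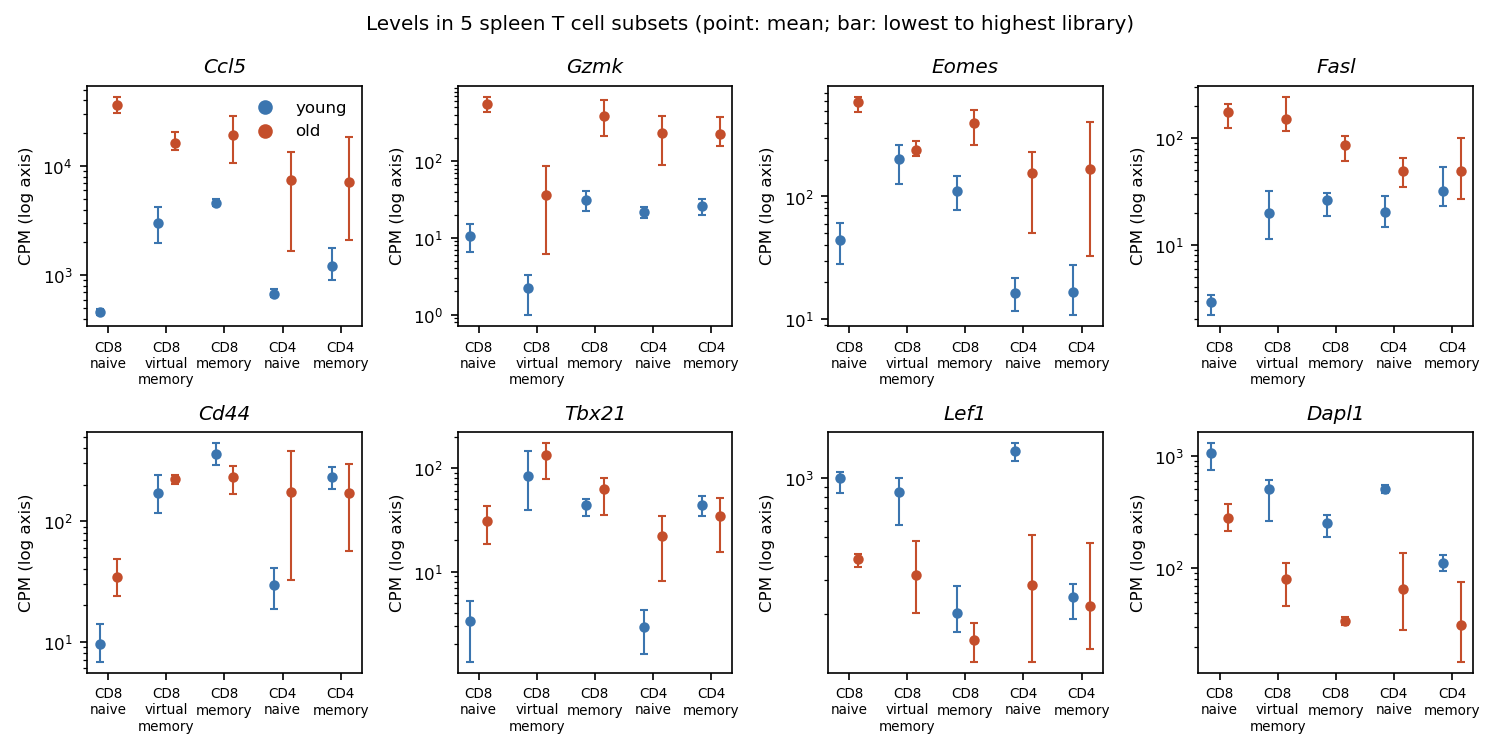
Points are mean CPM in young and old libraries of 5 spleen T cell subsets on log axes and bars run from the lowest to the highest library, for 8 genes. Ccl5, Gzmk and Eomes are higher in old CD8 naive than in old CD8 virtual memory libraries, while Cd44 and Tbx21 are lower.

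Whether the age change itself differed from that of other subsets was tested as an interaction, with the same CD8 naive libraries in all 3 tests. Against CD4 naive cells, 90 of 13048 tested genes (0.69%) differed in age change, 20 (0.153%) with a higher and 70 (0.536%) with a lower log2 fold change in CD8 naive cells. Against CD8 virtual memory cells 108 of 12634 (0.855%) differed, 82 (0.649%) higher and 26 (0.206%) lower, and against CD8 memory cells 332 of 12557 (2.64%) differed, 248 (1.97%) higher and 84 (0.669%) lower. These counts rested on few libraries: they were 308 for CD4 naive without its old replicate 1, 223 for virtual memory without its old replicate 4 and 1004 for memory without its old replicate 2. They fell to 43, 65 and 218 without old replicate 1 of the CD8 naive cells, to 58 and 221 for CD4 naive and memory without CD8 naive old replicate 2, to 54 for CD4 naive without CD8 naive old replicate 3, and to 212 and 219 for memory without its young replicate 3 or old replicate 3.

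Many of the same genes rose in CD4 naive cells. Fitted alone, CD4 naive cells had 6.32% of tested genes higher and 2.71% lower with age, virtual memory cells 2.62% and 1.29%, and memory cells 0.526% and 0.798%. Of the 543 higher genes of CD8 naive cells tested in both fits, 292 (53.8%) were higher in old CD4 naive cells, which is 47.5% of the 615 higher there, against 5.64% of all genes tested in both. Of the 337 lower genes 115 (34.1%) were lower there, 35.7% of its 322, against 2.95%. In virtual memory cells the shared higher genes were 125, which is 25.4% of the 493 tested in both and 50.2% of the 249 higher in virtual memory cells, against 2.47%. The shared lower genes there were 56, which is 16.8% of 334 and 42.7% of 131, against 1.3%. In memory cells the shared higher genes were 42, or 7.75% of 542 and 76.4% of 55, against 0.559%, and the shared lower genes 9, or 2.88% of 312 and 18.0% of 50, against 0.508%.

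Cytotoxic genes were among those that rose more in CD8 than in CD4 naive cells. On the common scale Fasl went from a mean of 2.94 to 174 CPM in CD8 naive and from 20.4 ± 6.49 to 48.8 ± 15.1 CPM in CD4 naive libraries, a difference in log2 fold change of 4.59 ± 0.41 (edgeR adjusted p = 4.42e-06). Gzma went from 7.45 to 129 CPM against 15.7 ± 5.77 to 21.9 ± 5.97 CPM, a difference of 3.66 ± 0.51 (edgeR adjusted p = 0.00123). Trgc4 (1.69 to 85.8 CPM against 2.61 ± 2.21 to 3.20 ± 2.43 CPM) and Klre1 (0.824 to 21.9 CPM against 2.77 ± 1.61 to 4.96 ± 0.854 CPM) differed by 5.30 ± 0.79 and 3.73 ± 0.71 (edgeR adjusted p = 0.00156 and 0.012). These 4 genes passed under every alternative run, whereas the unnamed transcript Gm47705 (3.47 ± 0.79, edgeR adjusted p = 0.0405) lost its call without any of 9 of the 14 libraries (0.0619 to 0.129), CD8 naive young replicates 2 to 4 and old replicates 1 and 2 among them.

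Some genes fell in old CD8 naive cells and rose in old CD4 naive cells. Nt5e, the ecto-nucleotidase CD73 that makes adenosine, went from 31.1 to 15.2 CPM in CD8 naive and from 22.9 ± 5.70 to 191 ± 63.1 CPM in CD4 naive libraries, a difference in log2 fold change of −4.13 ± 0.40 (edgeR adjusted p = 9.48e-06). Cxxc5, a zinc finger regulator, went from 55.0 to 19.9 CPM and from 7.52 ± 3.02 to 29.8 ± 6.88 CPM, a difference of −3.51 ± 0.40 (edgeR adjusted p = 9.38e-05). Tmem154, a transmembrane gene of unknown role, went from 13.9 to 5.70 CPM and from 44.3 ± 7.64 to 103 ± 36.0 CPM (−2.53 ± 0.42, edgeR adjusted p = 0.0038). The transcript Gm15411, at 3 counts in all old CD8 naive libraries, differed by −6.01 ± 0.96 (edgeR adjusted p = 0.00246), a fitted value that depends on the prior count. Podnl1, a leucine-rich matrix protein gene, rose in both, from 7.77 to 27.8 CPM and from 2.70 ± 0.407 to 64.9 ± 12.2 CPM, a difference of −2.75 ± 0.41 (edgeR adjusted p = 0.00148). The Nt5e age change in CD8 naive cells alone (−1.01 ± 0.29, edgeR adjusted p = 0.0366) lost its call without any single library but young replicate 3 (0.05 to 0.174), and that of Tmem154 (−1.26) without any but old replicate 1 (0.0524 to 0.189), while their interactions held.

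Nt5e also rose in virtual memory and memory cells, with differences of −2.0 ± 0.36 (edgeR adjusted p = 0.00275) and −2.73 ± 0.43 (0.000915), and Tmem154 in virtual memory cells, with a difference of −2.64 ± 0.44 (0.00127). Cxcr5 rose in CD8 naive cells, from 5.46 to 42.6 CPM, and fell in virtual memory cells, from 37.1 ± 15.4 to 13.7 ± 5.68 CPM, a difference of 4.41 ± 0.49 (edgeR adjusted p = 7.31e-06). Against virtual memory cells Lmo1 (6.01 ± 1.23, edgeR adjusted p = 0.0118), Ccl4 (5.26 ± 1.0, 0.0242), Chst2 (5.17 ± 1.12, 0.0292) and Gm47705 (4.52 ± 0.93, 0.0125) rose more in CD8 naive cells, and Bbs9 (−2.32 ± 0.52, 0.0279), Pag1 (−1.72 ± 0.40, 0.0308) and Dlg4 (−1.58 ± 0.39, 0.0491) had lower age changes. Those 7 calls were fragile: Lmo1 lost its call without young virtual memory replicate 1 (0.281), Gm47705 without old CD8 naive replicate 2 (0.0552) and Ccl4 without any young CD8 naive library or old CD8 naive replicate 1 or 2 (0.0513 to 0.0688). Bbs9, Pag1, Chst2 and Dlg4 lost theirs without any of 6, 9, 11 and 14 of the 17 libraries, old CD8 naive replicates 1 and 2 among them in each case, with adjusted p up to 0.121, 0.14, 0.0758 and 0.174.

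Against memory cells, Ccr2 rose from 2.25 to 119.5 CPM in CD8 naive cells and went from 250.4 ± 104 to 138 ± 35.2 CPM in memory cells, a difference of 6.37 ± 0.60 (edgeR adjusted p = 3.21e-05). Gzma went from 792 ± 396 to 152 ± 79.2 CPM in memory cells, a difference of 6.53 ± 0.79 (edgeR adjusted p = 0.00153), and the old CD8 naive and old memory levels were then 129 and 152 CPM. Chst2 (6.63 ± 0.69, edgeR adjusted p = 8.96e-06), Metrnl, which encodes the secreted factor meteorin-like (5.56 ± 0.91, 0.00718), and Ccl3 (5.37 ± 0.91, 0.0118) also rose more in CD8 naive cells. Als2cl, an exchange factor gene, had a lower age change (−2.35 ± 0.44, edgeR adjusted p = 0.0048), and so did the transcript Gm16288 (−2.51 ± 0.55, 0.0142). In CD8 naive cells Il7r went from 742 to 339.6 CPM, against 256 ± 128 to 687 ± 334 CPM in the memory libraries, a difference of −2.55 ± 0.54 (edgeR adjusted p = 0.0273) whose call was lost without any of 9 of the 13 libraries (0.0534 to 0.0833), CD8 naive young replicates 1, 3 and 4 and old replicates 1 and 3 among them. Hid1, a trafficking gene (−2.71 ± 0.62, edgeR adjusted p = 0.0207), lost its call without young CD8 naive replicate 1, old CD8 naive replicate 2 or old memory replicate 3 (0.0555 to 0.0657).

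**Figure D5:**
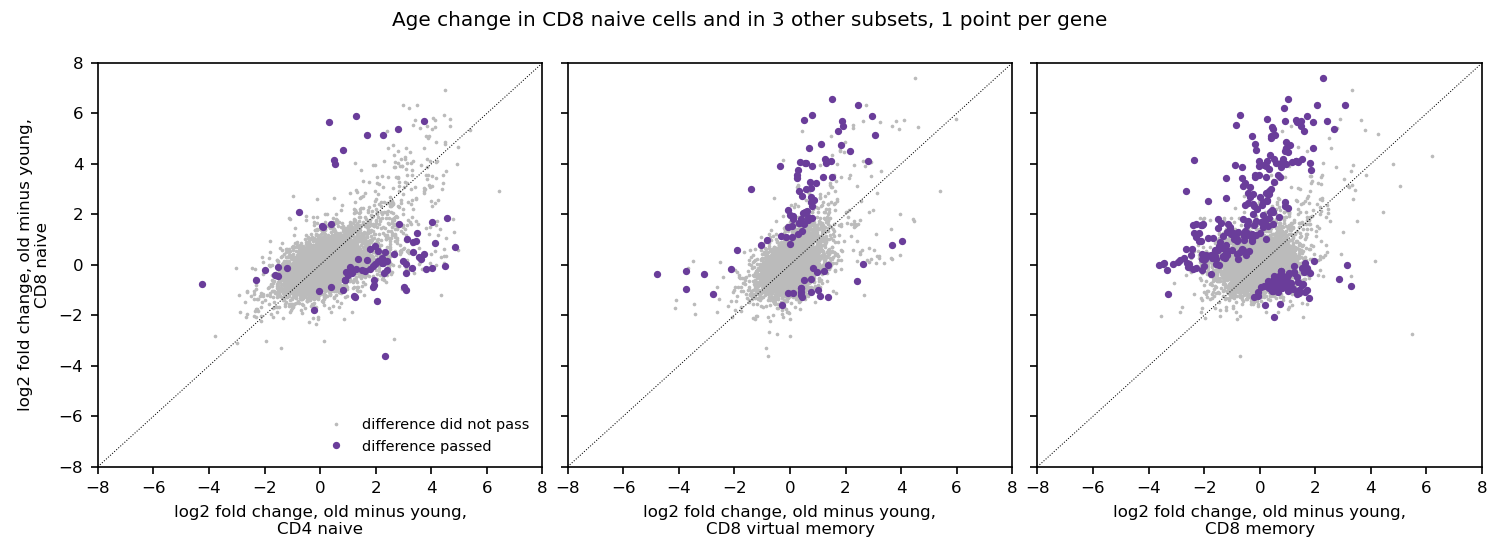
Each point is a gene tested in both fits, with its log2 fold change (old minus young) in another subset on the x axis and in CD8 naive cells on the y axis, 1 panel each for CD4 naive, CD8 virtual memory and CD8 memory cells. Coloured points are the 90, 108 and 332 genes whose age change differed between the subsets in the interaction test.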

How the data were processed

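RNA near the 3′ ends of polyadenylated transcripts was sequenced from FACS-sorted spleen T cells, with reads carrying a sample index and a molecular identifier, per the labels' protocols. The authors deposited raw read counts per gene for 170 libraries; the submitters' processing notes name STAR, featureCounts 2.0.1 and GRCm38.p6, and the sources used here do not say whether molecular identifiers were collapsed or strand was used, so intervals from counts cover counting error only. Of the 55484 entries, 26 carry names turned into dates and hold 0.18% of the CD8 naive counts.

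Counts were tested as deposited with edgeR 4.0.16 (R 4.3.3): TMM scaling, filterByExpr, a robust quasi-likelihood fit on the 3 old and 4 young CD8 naive libraries, and Benjamini-Hochberg adjustment over all tested genes with a threshold of 0.05. CPM were scaled by TMM over these 7 libraries, or over all libraries of 5 T cell subsets where subsets are set side by side or compared. Standard errors are the fold change divided by the square root of the F statistic. Interactions were tested in 1 fit per pair of subsets with a coefficient per group. Alternatives were RLE size factors, no filter, a replicate block, DESeq2 1.42.0, a spread shared over 5 subsets and leaving out each library in turn. On simulated counts for 11083 genes, the main comparison recovered 49.5% of 2-fold and 87.2% of 4-fold changes, with 4.41% false among its calls.

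Named genes were the 15 highest and 15 lowest by log2 fold change with at least 20 CPM and no overlap, leaving out Xist, Tsix, chromosome Y genes, unnamed models, pseudogenes, antisense genes and receptor segments; up to 4 members per list and direction with the lowest adjusted p and up to 2 abundant members that did not pass; and 5 genes per direction in each interaction. Heatr9, Ccl9, Cxcr6, Esm1, Casp4, Serpina3f, Trgc2, Trdc, Havcr2, Tox2, Cd44, Tbx21, Ly6c2, Cd8a, Fos, Hbb-bs, S100a8, Lyz2, Jchain, Cd4, Ncr1 and Adipoq fall outside it and were named after their values were seen. A few genes that the rule takes are not reported here. Members, lists and tests were chosen with earlier results of these data known. Coordinates come from the GENCODE M21 annotation of GRCm38, matched by gene symbol (99.1% of CD8 naive counts), and promoters from RefSeq on GRCm38.p6.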

Additional observations from a re-analysis of the deposited data

Results flagged for a closer look

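Among the 4 young libraries, 1 library stood apart from the other 3 for 13 of the 113 genes tested for it. The measure was the gap to its nearest neighbour relative to the whole range, and chance sets off about 1 in 20 groups. Young replicate 1 was high for Nkg7 (1281 CPM) and S100a8 (44.0 CPM) and low for Itgal (96.2 CPM). Young replicate 2 was high for Rapgef4 (75.8 CPM), Casp4 (6.69 CPM) and Heatr9 (0.446 CPM) and low for Lef1 (878 CPM) and Ets1 (1236 CPM). Young replicate 3 was high for Hmgb2 (132 CPM) and Kcnip3 (0.451 CPM) and low for Lyz2 (49.2 CPM). Young replicate 4, the least deeply sequenced of all, was high for Pdcd1 (5.56 CPM) and Il10ra (13.2 CPM). The Heatr9 and Kcnip3 values are single counts with none in the other young libraries, so these genes stand out by construction. For Pdcd1, Il10ra, Casp4, Nkg7 and Hmgb2 the library that stood apart was the young one nearest to the old range, below every old library. For Lef1 it was also the nearest, and above every old library. For Rapgef4, Itgal and Lyz2 it was the young library farthest from the old range. The young and old libraries overlapped for S100a8 and Ets1. The old group, with 3 libraries, was not examined this way.

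The age change differed between CD8 naive cells and another subset, by the interaction test, for the genes that follow, as differences in log2 fold change. Against CD4 naive cells the differences were −6.01 for Gm15411, −4.13 for Nt5e, −3.51 for Cxxc5, −2.75 for Podnl1, −2.53 for Tmem154, 5.30 for Trgc4, 4.59 for Fasl, 3.73 for Klre1, 3.66 for Gzma and 3.47 for Gm47705. Against CD8 virtual memory cells they were −2.64 for Tmem154, −2.32 for Bbs9, −2.0 for Nt5e, −1.72 for Pag1, −1.58 for Dlg4, 6.01 for Lmo1, 5.26 for Ccl4, 5.17 for Chst2, 4.52 for Gm47705 and 4.41 for Cxcr5. Against CD8 memory cells they were −2.73 for Nt5e, −2.71 for Hid1, −2.55 for Il7r, −2.51 for Gm16288, −2.35 for Als2cl, 6.63 for Chst2, 6.53 for Gzma, 6.37 for Ccr2, 5.56 for Metrnl and 5.37 for Ccl3. Nt5e, the gene of the adenosine-producing enzyme CD73, was among them in all 3 comparisons, which share the CD8 naive libraries. Of the 10 genes in each comparison, 9, 3 and 8 passed under every alternative run.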

How the results depend on the processing

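For CD8 naive cells, old against young, RLE size factors gave 591 higher and 354 lower genes, no filter on low counts 708 and 491, and DESeq2 649 and 394. With the spread shared over 5 subsets the counts were 451 and 156, and leaving out each library in turn gave 418 to 584 and 187 to 326. With no filter, the genes whose age change differed numbered 268 against CD4 naive, 205 against virtual memory and 778 against memory cells. Leaving out each library in turn gave 43 to 308, 65 to 223 and 212 to 1004. The causes were not tested. The replicate number as a block gave 564 higher and 348 lower genes, and 87, 166 and 406 interaction genes against CD4 naive, virtual memory and memory cells; with it Itm2a and Pag1 in CD8 naive cells (edgeR adjusted p = 0.0539 and 0.0678), the Gm47705 difference from CD4 naive (0.0798) and the Il7r difference from memory cells (0.0861) did not pass. Deviations of same-numbered old and young libraries correlated at 0.0956, 0.0822 and −0.0547, so the numbers were not taken as pairs, and old replicate 3 correlated best with young replicate 4 (0.184). Those were the old and the young library with the fewest counts.

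Of 96 genes described that passed in CD8 naive cells, 74 passed under every alternative; over these genes and all alternatives 75 calls were lost, and a further 71 of the described interaction calls. Directions turned only for genes that had not passed: leaving out each library in turn, Ets1 ran from −0.17 to 0.028 (without old replicate 2) and Ccl9 from −0.50 to 0.068 (without young replicate 2; 0.0026 without old replicate 3). Small differences can go unseen in these tests. In a single simulated run of each comparison the interactions recovered 9.18% to 12.1% of 2-fold and 51.6% to 61.5% of 4-fold differences. False calls in those runs were 13.6% of the calls against CD4 naive and 6.67% against virtual memory or memory cells, above the nominal 5%. The runs kept the depth of the libraries, so the part of depth was not tested.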
